A study of Homo sapiens with 22 samples.

Results

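The change that the FTO degrader FP54 brought to the transcriptome of NB4 cells was set against the change that it brought in MOLM-13 cells. FP54 is a proteolysis-targeting chimera, a molecule that joins a ligand of FTO, an eraser of N6-methyladenosine (m6A) on RNA, to a ligand of the ubiquitin ligase subunit VHL. Messenger RNA of both acute myeloid leukemia lines was sequenced after 48 hours with 2 μM FP54 or with the vehicle DMSO, in 3 libraries for each of the 4 groups. These are 12 of the 22 samples of the study, and the other 10, of m6A-seq and polysome-seq, were not used here. No further treatment is given for any group, and whether the replicates were separate cultures is not given, so that p-values may measure a technical spread. Both lines are established cell lines, each grown from the cells of 1 person, so that a difference between them is a difference between these 2 lines and stands for no leukemia subtype. The cell line of the values rests on the name of each table, for MOLM-13 as for NB4 cells, and the sample titles name both lines.

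A gene was a member if it averaged at least 1 RPKM (read counts scaled to gene length and library size) over the 6 libraries of each line, and 8849 of 20411 genes were. For each, the log2 difference between FP54 and DMSO in MOLM-13 cells was subtracted from that in NB4 cells. The scale is log2(RPKM + 0.1) throughout, on which the changes of weakly expressed genes are understated. This interaction was tested in 1 limma model of the 12 libraries, at a Benjamini-Hochberg adjusted p below 0.05. In each line alone a change was called at p below 0.01 with at least 0.5 on the log2 scale, the cutoff in the study's methods. The RPKM of the 2 lines were computed in separate tables, so that only differences within a line were tested, and levels of the lines are set side by side without a test.

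Cells that run short of amino acids, heme or oxygen, or that suffer oxidative stress, switch on transcription factors of the stress response. ATF4 is translated when the initiation factor eIF2 is phosphorylated and drives amino acid synthesis, amino acid import and tRNA charging through the C/EBP-ATF response element. HIF is kept low by VHL while oxygen is present, NRF2 drives antioxidant genes, and MYC binds E-boxes in front of genes for ribosome assembly. MOLM-13 carries a fusion of the KMT2A (MLL) gene and NB4 the PML-RARA fusion of acute promyelocytic leukemia.

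Reads on genes ranged from 5836560 to 19207420 in the MOLM-13 and from 10602309 to 22349822 in the NB4 libraries, and MOLM-13 FP54 replicate 2 was the shallowest. In NB4 cells depth split by treatment, from 20662773 to 22349822 with DMSO and from 10602309 to 13079300 with FP54. The part of this split in the results was not tested. CD33, SPI1, CEBPA and the other myeloid leukemia markers, 7 in all, averaged above 1 RPKM in each group. HOXA9 and MEIS1, which KMT2A fusions keep active, averaged 21.3 and 6.36 RPKM in MOLM-13 and 0.234 and 0.157 RPKM in NB4 cells with DMSO. FLT3, of the same marker list, was at 74.0 RPKM in MOLM-13 and 5.67 RPKM in NB4 cells with DMSO. HOXA10, its remaining member, went the other way, at 7.30 RPKM in MOLM-13 and 13.2 RPKM in NB4 cells. T cell, B cell, erythroid and fibroblast markers were near 0 in both lines, except CD3D at 6.35 RPKM and CD79A at 1.12 RPKM in NB4 cells with DMSO, and the epithelial markers EPCAM and KRT18 stood at 8.15 and 11.5 RPKM there. KRT18 was also at 7.35 RPKM in MOLM-13 cells with DMSO. The epithelial markers KRT8, KRT19 and CDH1 were at 1.22, 0 and 0 RPKM in NB4 cells with DMSO. CD3D averaged 10.3 and EPCAM 9.71 RPKM in NB4 cells with FP54, and the part of such transcripts in the results was not tested. The summed level of 415 olfactory receptor genes, which these cells should not express, was between 0.700 and 3.46 RPKM in the other 9 libraries and between 20.6 and 22.7 RPKM in the 3 NB4 FP54 libraries, a background that moves with that group. Its part in the genes that rose in NB4 cells was not tested beyond the subtraction below.

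Genes that were called in both lines moved mostly the same way, and more genes were called in NB4 than in MOLM-13 cells. In NB4 cells 1500 of the 8849 genes rose (17% of those tested) and 937 fell (10.6%), while in MOLM-13 cells 701 rose (7.92%) and 802 fell (9.06%). All FP54 libraries lay on one side of all DMSO libraries for 59.8% of the genes in NB4 and for 35.7% in MOLM-13 cells. A total of 728 genes were called in both lines, which is 48.4% of the MOLM-13 calls and 29.9% of the NB4 calls, and 645 of them, or 88.6%, moved the same way. Over genes, which are not independent replicates, the 2 sets of log2 changes correlated with Pearson's r = 0.44 and Spearman's rho = 0.49. The median standard error of a change was 0.176 in MOLM-13 and 0.111 in NB4 cells, so that a change of the same size was called less readily in MOLM-13 cells.

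The interaction passed for 1258 genes, 14.2% of those tested. For 926 of them (10.5%) the log2 change was higher in NB4 than in MOLM-13 cells, and for 332 (3.75%) it was lower. At an unadjusted p below 0.05 there were 2497 genes. The median difference over all genes was 0.083, with an SD of 0.557 over genes. This split depended on the scaling between libraries. Median-ratio scaling moved the median difference to −0.088 and gave 623 higher and 834 lower genes, so that 42.8% rather than 73.6% of the calls were higher in NB4 cells, and quantile normalization gave 858 and 813. Subtracting the olfactory receptor background from each library left 890 higher and 348 lower. The amount subtracted was the mean over these receptor genes, 0.050 to 0.055 RPKM in the NB4 FP54 libraries. That is small beside the limit of 1 RPKM, so that the subtraction could move few calls. The higher count fell to 607 without NB4 FP54 replicate 2 and to 613 without replicate 3, and the lower count fell to 212, 200 and 199 without NB4 FP54 replicates 1, 2 and 3.

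**Figure D1:**
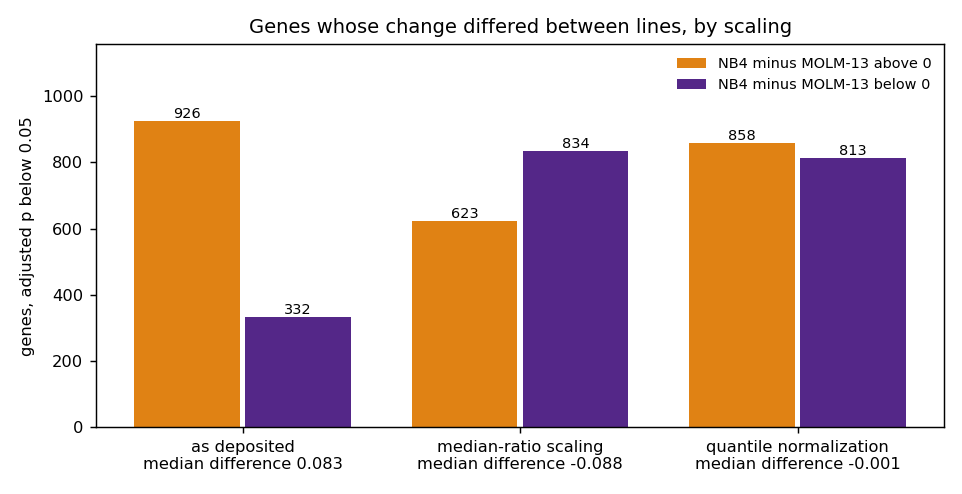
Genes whose FP54 effect differed between the lines at an adjusted p below 0.05 (vertical axis, number of genes), split by the sign of NB4 minus MOLM-13, for the deposited RPKM and for 2 scalings between the libraries of each line. The 926 higher and 332 lower genes of the deposited values became 623 and 834 under median-ratio scaling, with the median difference over all genes printed under each pair of bars.

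The genes fell into classes by the call in each line and by the interaction. Shared changes were called in both lines in 1 direction, with 362 genes higher (4.09%) and 283 lower (3.2%). The interaction missed the threshold for 300 of the shared higher and 266 of the shared lower genes, which does not show that the 2 changes were of equal size. It passed for 59 shared higher genes that rose more and 3 that rose less in NB4 cells, and for 6 shared lower genes that fell more and 11 that fell less there. Opposite changes were called in 83 genes, of which 68 (0.768%) were higher in NB4 and lower in MOLM-13 cells and 15 (0.17%) the reverse. A change was called in NB4 cells alone, with the interaction passed, for 471 higher (5.32%) and 121 lower genes (1.37%). The same in MOLM-13 cells held for 92 higher (1.04%) and 185 lower genes (2.09%). A further 1615 genes were called in 1 line while the interaction missed (18.3%), and they are assigned to neither. In the last 5637 genes (63.7%) no change was called in either line, though 227 of them passed the interaction. Without MOLM-13 DMSO replicate 3 the counts of shared lower, opposite NB4-higher, MOLM-13-specific higher and MOLM-13-specific lower genes were 159, 45, 59 and 88. Without MOLM-13 FP54 replicate 1 the shared higher, shared lower, opposite NB4-lower, MOLM-13-specific higher and MOLM-13-specific lower counts were 234, 156, 9, 60 and 109. Without MOLM-13 DMSO replicate 2, shared lower and MOLM-13-specific lower genes numbered 431 and 319, and without MOLM-13 DMSO replicate 1 they numbered 184 and 106. MOLM-13-specific higher genes numbered 159 without MOLM-13 FP54 replicate 2 and 61 without NB4 FP54 replicate 3. Those lower numbered 293 without MOLM-13 FP54 replicate 3, 118 without NB4 FP54 replicate 2 and 122 without NB4 FP54 replicate 3. NB4-specific lower genes numbered 80 without NB4 FP54 replicate 2.

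**Figure D2:**
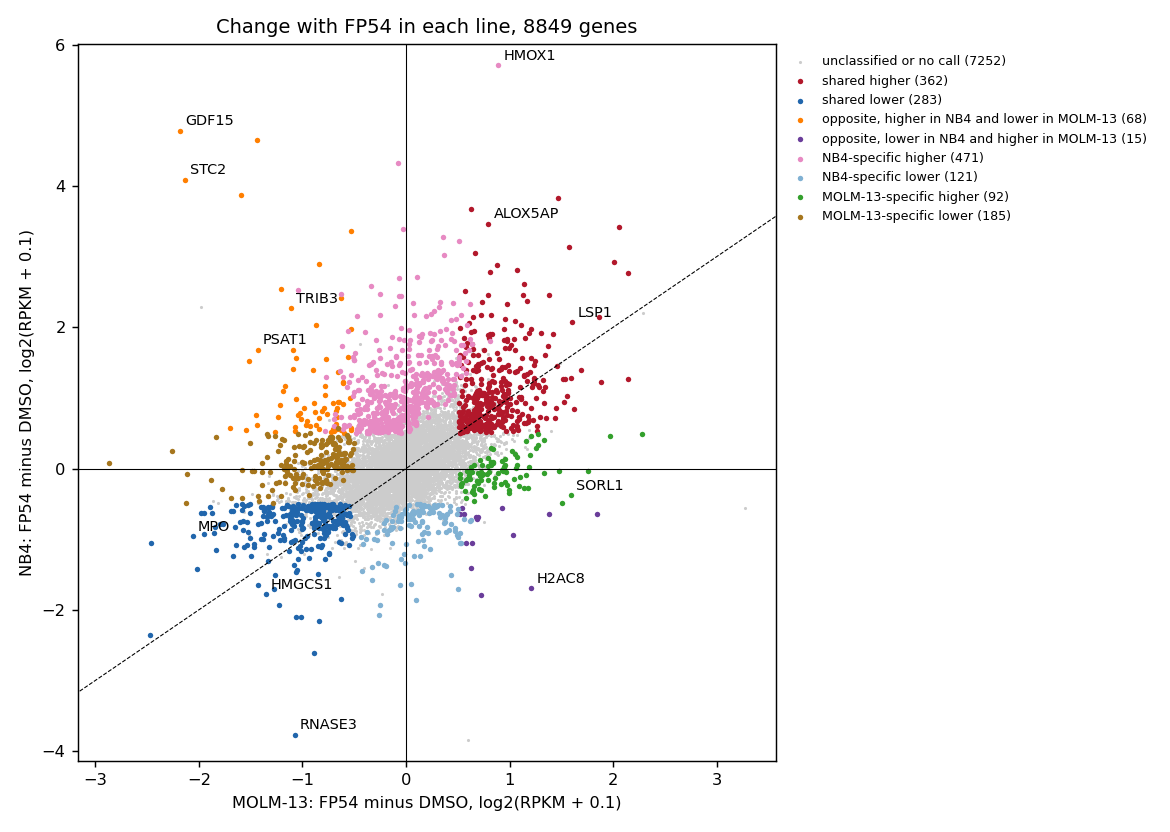
Log2 change with FP54 in MOLM-13 (horizontal axis) against that in NB4 cells (vertical axis), both on log2(RPKM + 0.1), for 8849 genes, coloured by class with the number of genes in each. The 68 orange genes at the upper left, among them STC2, GDF15 and TRIB3, rose in NB4 and fell in MOLM-13 cells, and the dashed line marks equal changes.

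Among the 44 gene lists, the widest difference was that of the amino acid stress pathway, with most of the genes tested in both lines higher in NB4 cells and some of them lower in MOLM-13 cells. Of 15 tested ATF4 pathway regulators and secreted factors, 13 rose and none fell in NB4, while none rose and 7 fell in MOLM-13 cells, and the interaction passed for 14, each higher in NB4 cells. Their median change was −0.71 in MOLM-13 and 2.15 in NB4 cells, beside −0.01 and 0.05 over all tested genes. The median of the per-gene differences was 2.63. The interaction count was 13 or 14 without each library in turn, and 13 under both other scalings. Counts of this and the later lists stand beside the shares over all tested genes. These were 17% risen and 10.6% fallen in NB4, 7.92% risen and 9.06% fallen in MOLM-13 cells, and 14.2% past the interaction. NUPR1, a stress-induced chromatin protein of the list, which was below the RPKM limit in NB4 cells and is named here after its values were seen, rose in MOLM-13 cells. It was at 2.64, 3.31 and 3.77 RPKM with DMSO and 8.11, 9.84 and 4.74 RPKM with FP54, a log2 change of 1.15 ± 0.26 (SE), so that the list was not lower in MOLM-13 cells throughout. In NB4 cells NUPR1 was at 0.00879, 0 and 0 RPKM with DMSO and 0.428, 0.328 and 0.333 RPKM with FP54, which was not tested.

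STC2, a secreted glycoprotein of the stress response, was at 14.5, 12.5 and 18.3 RPKM with DMSO and 2.39, 4.07 and 3.76 RPKM with FP54 in MOLM-13 cells. In NB4 cells it was at 0.937, 0.797 and 0.486 RPKM with DMSO and 13.5, 13.9 and 14.0 RPKM with FP54. The 2 treatments did not overlap in either line, and the NB4 FP54 level reached that of MOLM-13 cells with DMSO. Its change was −2.13 ± 0.22 (SE) in MOLM-13 and 4.09 ± 0.18 in NB4 cells, a difference of 6.22 ± 0.32 (limma, adjusted p = 1.57e-08).

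GDF15, a secreted factor of cell stress, was at 9.41, 10.9 and 9.75 RPKM with DMSO and 2.62, 1.40 and 2.59 RPKM with FP54 in MOLM-13 cells. No read was counted in the 3 NB4 DMSO libraries, and with FP54 it stood at 2.71, 2.64 and 2.60 RPKM, from 60, 64 and 71 reads. Against a limit of 3 reads in each DMSO library this is at least 38.1-fold higher in NB4 cells, and in MOLM-13 cells GDF15 fell by 2.19 on the log2 scale. TRIB3, a pseudokinase that feeds back on ATF4, was at 19.1, 13.7 and 18.3 RPKM with DMSO and 7.49, 7.30 and 8.49 RPKM with FP54 in MOLM-13 and at 17.3, 17.9 and 14.1 RPKM with DMSO and 76.6, 87.1 and 75.1 RPKM with FP54 in NB4 cells. The DMSO levels of the lines lay in one range, and FP54 moved them apart by 3.38 ± 0.20 (adjusted p = 7.17e-08).

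ATF5, a relative of ATF4 and its target, fell by 0.53 in MOLM-13 and rose by 3.36 in NB4 cells, a difference of 3.89 ± 0.16 (adjusted p = 1.27e-09). The MOLM-13 call of ATF5 was lost without DMSO replicate 3 or FP54 replicate 1 of that line. S100P, a calcium-binding protein that is not in the pathway list, was among the 6 widest opposite genes above 3 RPKM, with −1.21 in MOLM-13 and 2.54 in NB4 cells and a difference of 3.75 (adjusted p = 1.54e-07).

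**Figure D3:**
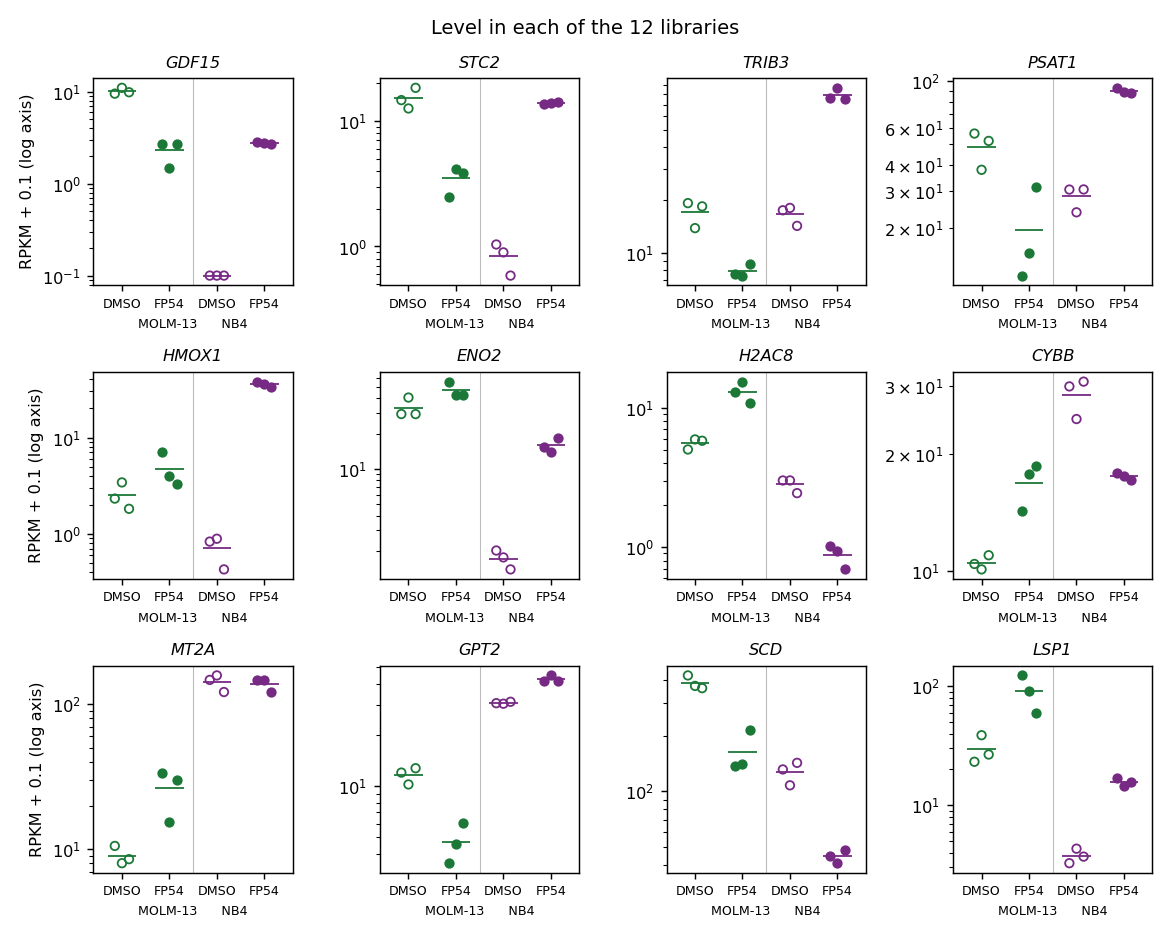
RPKM + 0.1 on a log axis for 12 genes in each of the 12 libraries, MOLM-13 in green and NB4 in purple, open circles for DMSO and filled circles for FP54, with a line at the mean of 3. GDF15, STC2, TRIB3 and PSAT1 fell in MOLM-13 and rose in NB4 cells, H2AC8 and CYBB did the reverse, HMOX1 and ENO2 were called in NB4 cells only, MT2A and GPT2 in MOLM-13 cells only, and SCD and LSP1 moved the same way in both.

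Many genes that make, import and charge amino acids also differed, though not every member did. Of 13 tested genes of serine, glycine, proline and asparagine synthesis, 8 fell in MOLM-13 cells, 8 rose and 1 fell in NB4 cells, and 11 passed the interaction, each higher in NB4 cells. The medians of the list were −0.96 and 0.79. Of 12 amino acid transporters, 8 rose and 1 fell in NB4 cells, 1 rose and 6 fell in MOLM-13 cells, and 8 passed the interaction as higher in NB4 cells. SLC43A2, a transporter tested in MOLM-13 cells only and likewise named after its values were seen, rose there by 1.37. Its untested NB4 values were 0.260, 0.363 and 0.333 RPKM with DMSO and 0.961, 0.835 and 0.729 RPKM with FP54. Of 20 cytosolic aminoacyl-tRNA synthetases, 9 fell in MOLM-13 cells, 5 rose and 2 fell in NB4 cells, 1 gene falling in both, and 13 passed the interaction, a count of 9 to 14 without each library in turn. Under median-ratio scaling the interaction count was 8, and the calls in NB4 cells alone were 2 synthetases risen and 6 fallen.

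PSAT1, the aminotransferase of serine synthesis, was at 56.2, 37.7 and 51.8 RPKM with DMSO and 11.7, 15.1 and 31.2 RPKM with FP54 in MOLM-13 cells. In NB4 cells it was at 30.3, 23.6 and 30.4 RPKM with DMSO and 93.0, 88.8 and 87.8 RPKM with FP54, without overlap in either line. Its difference was 3.12 ± 0.37 (adjusted p = 6.67e-05), and PHGDH, which catalyses the step before it, had log2 changes of −1.02 in MOLM-13 and 0.79 in NB4 cells (difference 1.81, adjusted p = 3.9e-05). ALDH1L2, a mitochondrial folate enzyme, had log2 changes of −0.84 in MOLM-13 and 2.90 in NB4 cells, with a difference of 3.74 (adjusted p = 1.45e-06) and a MOLM-13 call that was lost without DMSO replicate 1 or FP54 replicate 1. SLC7A5, the light chain of the leucine transporter, had log2 changes of −0.99 in MOLM-13 and 0.85 in NB4 cells (difference 1.84, adjusted p = 0.000358).

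ASNS, which makes asparagine, was at 14.5, 10.5 and 13.5 RPKM with DMSO and 6.32, 8.02 and 10.9 RPKM with FP54 in MOLM-13 cells, where the treatments overlapped and no change was called. In NB4 cells it was at 9.29, 8.96 and 8.11 RPKM with DMSO and 48.4, 51.0 and 47.2 RPKM with FP54 and rose by 2.46 ± 0.09, and the difference was 3.09 ± 0.24 (adjusted p = 1.1e-06). A fall in MOLM-13 cells was called once DMSO replicate 2 or FP54 replicate 3 was left out, so that ASNS may be read as NB4-specific or as opposite. AARS1, which charges tRNA with alanine, had log2 changes of −0.46 in MOLM-13 and 1.26 in NB4 cells (difference 1.72, adjusted p = 9.19e-06), and its class turned to opposite without MOLM-13 DMSO replicate 2 or FP54 replicate 2. GARS1, which charges glycine, was instead called in MOLM-13 cells alone, at 14.6, 11.9 and 15.4 RPKM with DMSO and 4.52, 5.87 and 6.97 RPKM with FP54, a fall of 1.27 beside an uncalled 0.46 in NB4 cells (difference 1.73, adjusted p = 5.89e-05).

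The promoter windows of the tested genes, from 250 bases before to 50 bases after the annotated start (RefSeq, GRCh38.p14, 7311 of 8849 genes matched), were searched on both strands for 4 motifs. The C/EBP-ATF response element was searched as TGATGNAA and found in 1.59% of them. It was in 7 of 57 windows of the opposite NB4-higher genes (12.3%), in 15 of 373 of the NB4-specific higher genes (4.02%) and in 6 of 16 of the tRNA synthetases (37.5%). Over all 27305 promoters of the table, including genes not expressed here, its share was 3.67%. A match describes the letters of a window and does not show that a factor binds there, and its absence says only that these letters are not in the window. The windows of ASNS at chr7:97872359-97872658 (minus strand), AARS1 at chr16:70289457-70289756 (minus strand) and S100P at chr4:6693628-6693927 (plus strand) are shown because these genes rose in NB4 cells and hold the element, which is in capitals. In ASNS it reads along the gene and in AARS1 and S100P on the opposite strand.
ASNS: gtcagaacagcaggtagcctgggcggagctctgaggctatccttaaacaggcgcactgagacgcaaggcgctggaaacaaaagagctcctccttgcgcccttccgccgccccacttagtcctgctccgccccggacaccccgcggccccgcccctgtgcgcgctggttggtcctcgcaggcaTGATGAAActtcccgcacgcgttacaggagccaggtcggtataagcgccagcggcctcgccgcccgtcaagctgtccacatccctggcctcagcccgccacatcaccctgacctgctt
AARS1: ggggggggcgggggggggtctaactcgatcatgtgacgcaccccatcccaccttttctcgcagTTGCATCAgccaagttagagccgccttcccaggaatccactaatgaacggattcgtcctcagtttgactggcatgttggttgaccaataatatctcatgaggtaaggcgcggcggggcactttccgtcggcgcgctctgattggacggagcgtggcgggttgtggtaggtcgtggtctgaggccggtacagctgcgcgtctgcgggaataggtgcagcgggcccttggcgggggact
S100P: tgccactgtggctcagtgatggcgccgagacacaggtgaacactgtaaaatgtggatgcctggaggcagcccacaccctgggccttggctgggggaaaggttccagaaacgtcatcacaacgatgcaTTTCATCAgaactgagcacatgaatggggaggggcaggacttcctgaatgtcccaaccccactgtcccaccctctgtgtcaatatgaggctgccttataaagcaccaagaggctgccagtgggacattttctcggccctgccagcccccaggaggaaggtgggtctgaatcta

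More antioxidant, hypoxia and sugar metabolism genes were called higher in NB4 than in MOLM-13 cells, and a part of them passed the interaction. Of 18 tested NRF2 target genes, 12 rose and 1 fell in NB4 and 4 rose in MOLM-13 cells, and 8 passed the interaction, each higher in NB4 cells. The MOLM-13 count was 1 or 2 without DMSO replicate 1 or 3 or FP54 replicate 1. HMOX1, the enzyme that breaks down heme, was at 2.23, 3.33 and 1.72 RPKM with DMSO and 6.98, 3.87 and 3.17 RPKM with FP54 in MOLM-13 cells, with overlapping treatments. In NB4 cells it was at 0.735, 0.794 and 0.330 RPKM with DMSO and 37.9, 35.8 and 33.6 RPKM with FP54, the widest NB4-specific rise above 3 RPKM, with a difference of 4.82 ± 0.43 (adjusted p = 4.76e-06). A rise in MOLM-13 cells was also called without DMSO replicate 2 or FP54 replicate 3. NQO1, a quinone reductase, had log2 changes of −0.07 in MOLM-13 and 1.84 in NB4 cells (difference 1.90, adjusted p = 2.15e-05), and SLC7A11, the cystine importer that both NRF2 and ATF4 induce, of 0.37 in MOLM-13 and 3.02 in NB4 cells (difference 2.65, adjusted p = 5.18e-06).

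Of 10 tested HIF target genes, 9 rose in NB4 and 2 in MOLM-13 cells (1 under both other scalings), and 7 passed the interaction under the deposited values and both other scalings. Their medians were 0.18 in MOLM-13 and 1.54 in NB4 cells. CA9, a gene of the list that was below the RPKM limit in NB4 cells and is named after its values were seen, fell in MOLM-13 cells by 0.88. In NB4 cells CA9 was at 0.030, 0.029 and 0.028 RPKM with DMSO and 1.18, 0.914 and 0.862 RPKM with FP54, which was not tested. VEGFA, the vascular growth factor, was at 59.1, 77.7 and 60.2 RPKM with DMSO and 86.3, 77.4 and 68.7 RPKM with FP54 in MOLM-13 and at 9.37, 8.43 and 7.74 RPKM with DMSO and 37.1, 41.6 and 38.7 RPKM with FP54 in NB4 cells. The MOLM-13 groups overlapped, and the difference was 1.95 ± 0.18 (adjusted p = 7.9e-06). DDIT4, an inhibitor of mTORC1 that ATF4 also induces and that stands in both lists, had log2 changes of 0.11 in MOLM-13 and 2.71 in NB4 cells (difference 2.60, adjusted p = 5.71e-07). P4HA1, a collagen prolyl hydroxylase subunit, rose in both lines, by 0.52 in MOLM-13 and 1.99 in NB4 cells (difference 1.47, adjusted p = 0.000116), though its MOLM-13 call did not hold without DMSO replicate 1, DMSO replicate 3 or either of FP54 replicates 1 and 3. VHL itself, the ligase subunit that FP54 recruits, was at 18.6, 18.0 and 20.2 RPKM with DMSO and 12.9, 14.0 and 15.4 RPKM with FP54 in MOLM-13 and at 23.3, 22.3 and 20.6 RPKM with DMSO and 27.9, 26.6 and 26.9 RPKM with FP54 in NB4 cells. It was called in neither line. The groups ran in opposite directions without overlap, though groups did not overlap for 59.8% of all tested genes in NB4 and 35.7% in MOLM-13 cells. The difference of VHL was 0.72 ± 0.15 (adjusted p = 0.00468).

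Glycolysis genes rose in NB4 cells in 8 of 19 and in MOLM-13 cells in 2 of 19 (4 without DMSO replicate 2), with 6 (31.6%) past the interaction. The shares over all tested genes were 17%, 7.92% and 14.2%, so that the MOLM-13 count was near that of all genes. ENO2, a glycolytic enolase, was at 29.3, 40.5 and 29.2 RPKM with DMSO and 55.4, 42.8 and 42.5 RPKM with FP54 in MOLM-13 and at 1.92, 1.67 and 1.3 RPKM with DMSO and 15.4, 13.9 and 18.2 RPKM with FP54 in NB4 cells. Its MOLM-13 change of 0.51 was not called in all 6 libraries and was called without DMSO replicate 2, and the difference was 2.7 ± 0.24 (adjusted p = 5.01e-06). A pair of lipid genes was among the 5 widest NB4-specific rises. VLDLR, a lipoprotein receptor, had log2 changes of −0.03 in MOLM-13 and 3.39 in NB4 cells (difference 3.42, adjusted p = 1.81e-08), and PLIN2, a coat protein of lipid droplets, of −0.25 in MOLM-13 and 2.47 in NB4 cells (difference 2.72, adjusted p = 1.55e-05).

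Some growth arrest, cell death and signalling genes differed as well. Of 12 tested p53 target genes, 5 rose and 1 fell in NB4 and 4 fell in MOLM-13 cells. The MOLM-13 count was 2 without DMSO replicate 2 or 3. The interaction passed for 5 (41.7%, beside 14.2% of all tested genes). CDKN1A, the p21 inhibitor of cyclin-dependent kinases, was at 219, 206 and 198 RPKM with DMSO and 164, 124 and 145 RPKM with FP54 in MOLM-13 and at 2.17, 2.33 and 1.48 RPKM with DMSO and 8.66, 7.63 and 7.66 RPKM with FP54 in NB4 cells. The MOLM-13 level stayed far above the NB4 level in these separate tables, and the difference was 2.50 ± 0.22 (adjusted p = 2.93e-06). The MOLM-13 fall of 0.53 lay close to the cutoff, and the call did not hold without any one of DMSO replicates 1 to 3 or FP54 replicates 2 and 3. PMAIP1, which encodes the death protein NOXA, had log2 changes of −0.32 in MOLM-13 and 1.10 in NB4 cells (difference 1.42, adjusted p = 1.69e-05).

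Among 14 tested BCL2 family genes 5 passed the interaction (35.7%, beside 14.2% of all tested genes). This count was 3 without MOLM-13 DMSO replicate 3 or NB4 FP54 replicate 2. BCL2, which blocks cell death, fell in both lines, from 11, 6.17 and 9.27 to 1.39, 2.01 and 3.26 RPKM in MOLM-13 and from 7.75, 5.45 and 8.13 to 4.39, 4.36 and 4.67 RPKM in NB4 cells. The larger fall in MOLM-13 cells gave a difference of 1.34 ± 0.37 (adjusted p = 0.0254), which missed the threshold without MOLM-13 DMSO replicate 1 or 3, MOLM-13 FP54 replicate 1, NB4 DMSO replicate 2 or any 1 of the 3 NB4 FP54 libraries. Of 20 AP-1, immediate early and ERK feedback genes, 11 rose in NB4 cells, 2 rose and 4 fell in MOLM-13 cells, and 10 (50%) passed the interaction. JUN, a subunit of AP-1, was opposite, with −1.19 in MOLM-13 and 1.10 in NB4 cells (difference 2.28, adjusted p = 1.94e-05).

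A part of the immune and mature myeloid genes rose in both lines, and some rose more in NB4 cells. Of 16 tested myeloid surface receptor genes, 10 rose and 1 fell in NB4 and 8 rose in MOLM-13 cells, 6 of them rising in both, and 6 passed the interaction as higher and 1 as lower in NB4 cells. ALOX5AP, the activator of leukotriene synthesis, was at 109, 113 and 95.1 RPKM with DMSO and 197, 158 and 198 RPKM with FP54 in MOLM-13 and at 0.807, 0.531 and 0.586 RPKM with DMSO and 8.6, 7.77 and 7.60 RPKM with FP54 in NB4 cells. Both lines rose without overlap, from a DMSO level in NB4 cells far under that in MOLM-13 cells, and the difference was 2.67 ± 0.20 (adjusted p = 8.75e-07). ITGAX, the integrin CD11c, had log2 changes of 0.79 in MOLM-13 and 2.45 in NB4 cells (difference 1.66, adjusted p = 0.000333). SIGLEC6, a sialic acid receptor, had log2 changes of 0.63 in MOLM-13 and 3.67 in NB4 cells (difference 3.04, adjusted p = 5.71e-07), and its MOLM-13 call was lost without DMSO replicate 1 or 3 or FP54 replicate 3. C5AR1, the receptor of complement C5a, rose in NB4 cells alone, by 1.99, beside −0.05 in MOLM-13 cells (difference 2.04, adjusted p = 8.97e-05).

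Interferon-stimulated genes rose in 18 of 30 in NB4 cells and in 11 of 30 in MOLM-13 cells, where 3 fell. The interaction passed for 7 as higher and 1 as lower in NB4 cells (26.7%, beside 14.2% of all tested genes). The MOLM-13 count of risen genes was 6, 5 and 4 without DMSO replicate 1, DMSO replicate 3 and FP54 replicate 1, and the interaction count was 4 without NB4 FP54 replicate 2. XAF1, an interferon-induced antagonist of death inhibitors, was opposite, with −0.54 in MOLM-13 and 1.00 in NB4 cells (difference 1.55, adjusted p = 3.23e-05), and its MOLM-13 call did not hold without DMSO replicate 1. CD74, the chaperone of MHC class II, had log2 changes of 0.33 in MOLM-13 and 1.95 in NB4 cells (difference 1.62, adjusted p = 0.00221) and was the only 1 of 12 genes on the MHC class II list with enough RPKM in both lines.

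Granule protein genes were called lower more often, and most of those past the interaction were lower in NB4 cells. Of 12 tested, 9 fell and 1 rose in NB4 and 4 fell and 1 rose in MOLM-13 cells, with 7 past the interaction as lower and 1 as higher in NB4 cells. Medians were −0.75 in NB4 and −0.15 in MOLM-13 cells. RNASE3, the eosinophil cationic protein, was at 17.3, 11.9 and 16.7 RPKM with DMSO and 5.89, 6.31 and 9.63 RPKM with FP54 in MOLM-13 and at 6.66, 12.2 and 9.21 RPKM with DMSO and 0.514, 0.702 and 0.521 RPKM with FP54 in NB4 cells. It fell without overlap in both lines, with a difference of −2.69 ± 0.33 (adjusted p = 8.02e-05). CTSG, cathepsin G, fell by 0.89 in MOLM-13 and by 2.60 in NB4 cells (difference −1.71, adjusted p = 8.62e-05), and PRTN3, proteinase 3, fell in NB4 cells alone, by 1.93, beside −0.25 in MOLM-13 cells (difference −1.68, adjusted p = 0.00196). MPO, myeloperoxidase, was the exception that passed as higher, having fallen by 2.06 in MOLM-13 and by 0.96 in NB4 cells (difference 1.10, adjusted p = 0.00268). Its DMSO levels were 18.1, 12.8 and 17.4 RPKM in MOLM-13 and 2036, 2263 and 2211 RPKM in NB4 cells.

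Opposite genes of the other sign, lower in NB4 and higher in MOLM-13 cells, included 4 replication-dependent histones. Of the 65 genes on that list only 10 reached 1 RPKM in both lines. Of these, 8 rose in MOLM-13 cells, 5 fell and 2 rose in NB4 cells, and 7 passed the interaction as lower and 1 as higher in NB4 cells. The latter count was 0 without any one of 6 libraries, MOLM-13 DMSO replicate 3, MOLM-13 FP54 replicate 2, NB4 DMSO replicates 1 and 3 and NB4 FP54 replicates 2 and 3. The NB4 count of fallen genes was 3 without NB4 DMSO replicate 3 or FP54 replicate 1. Most transcripts of these genes lack a poly(A) tail, so that poly(A) selection keeps only a part of them. H2AC8 was at 4.91, 5.81 and 5.69 RPKM with DMSO and 12.8, 15.3 and 10.6 RPKM with FP54 in MOLM-13 and at 2.90, 2.90 and 2.34 RPKM with DMSO and 0.913, 0.831 and 0.592 RPKM with FP54 in NB4 cells, a difference of −2.90 ± 0.25 (adjusted p = 2.45e-06). H2BC12 differed by −1.70 (adjusted p = 0.000177).

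CYBB, the catalytic subunit of the phagocyte NADPH oxidase, was at 10.3, 10.0 and 10.9 RPKM with DMSO and 14.2, 17.7 and 18.6 RPKM with FP54 in MOLM-13 and at 29.8, 24.5 and 30.6 RPKM with DMSO and 17.8, 17.5 and 17.0 RPKM with FP54 in NB4 cells. The FP54 levels of the 2 lines met in one range, and the difference was −1.36 ± 0.18 (adjusted p = 0.000121). CEBPD, a C/EBP factor of myeloid cells, had log2 changes of 0.57 in MOLM-13 and −1.06 in NB4 cells (difference −1.63, adjusted p = 0.000334), and GSN, gelsolin, which severs actin, of 0.68 in MOLM-13 and −0.71 in NB4 cells (difference −1.39, adjusted p = 2.64e-05). MRPL41, a protein of the mitochondrial ribosome, differed by −1.38 (adjusted p = 0.00189) and MSRB1, a methionine sulfoxide reductase, by −1.20 (adjusted p = 0.00063). The MOLM-13 calls of CEBPD, H2BC12, MRPL41 and MSRB1 were each lost without any one of 3 or 4 MOLM-13 libraries, among them FP54 replicate 1 for all 4 genes, while those of H2AC8, CYBB and GSN held without each library.

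More mitochondrial translation and respiration genes were called lower in NB4 than in MOLM-13 cells, where the standard errors were larger. Most of them missed the interaction threshold, but the share past it as lower in NB4 cells was above that of all tested genes. Of 73 mitochondrial ribosomal protein genes, 35 fell in NB4 cells, 8 fell and 2 rose in MOLM-13 cells. The interaction passed for 8 (11%), all as lower in NB4 cells. Of all tested genes 3.75% passed as lower in NB4 cells and 14.2% in either direction. The MOLM-13 count of falls was 27 without DMSO replicate 2, 3 or 4 without DMSO replicate 1, DMSO replicate 3 or FP54 replicate 1, and the interaction count was 4 or 5 without NB4 DMSO replicate 3, FP54 replicate 2 or FP54 replicate 3. Of 70 nuclear-encoded respiratory chain genes, 19 fell in NB4 and 2 in MOLM-13 cells (12 without DMSO replicate 2), with 7 (10%) past the interaction as lower. Under median-ratio scaling the NB4 falls numbered 42 and the interaction counts of the mitochondrial ribosomal and respiratory genes were 18 and 16. The respiratory interaction count was 3 without NB4 FP54 replicate 2, 4 without NB4 FP54 replicate 1 or 3 or MOLM-13 FP54 replicate 1, and 11 without MOLM-13 DMSO replicate 1. NDUFC1, a subunit of complex I, had log2 changes of 0.16 in MOLM-13 and −1.01 in NB4 cells (difference −1.18, adjusted p = 0.00272). Transcript length moved with this side of the result. In the 1765 genes with the shortest exon unions, up to 3017 bases, the median difference was −0.02 and 6.80% of genes passed as lower in NB4 cells, against 0.15 and 2.38% in the 1764 genes with the longest, and the NB4-specific lower genes had a median length of 3430 bases against 5333 over all tested genes. The part of length in these calls was not tested.

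The widest NB4-specific falls above 3 RPKM were of unlike function. IL6R, the interleukin 6 receptor, was at 18.4, 18.5 and 21.0 RPKM with DMSO and 15.4, 16.9 and 15.9 RPKM with FP54 in MOLM-13 and at 14.8, 13.8 and 15.7 RPKM with DMSO and 4.41, 2.99 and 3.01 RPKM with FP54 in NB4 cells. The change in MOLM-13 cells was small though without overlap, and the difference was −1.82 ± 0.20 (adjusted p = 3.23e-05). SOWAHD, an ankyrin repeat protein, differed by −1.95 (adjusted p = 0.00138), and DACH1, a transcriptional repressor, by −1.68 (adjusted p = 0.000144). CCNB1, the mitotic cyclin B1, fell in NB4 cells by 0.90 beside a change of 0.17 in MOLM-13 cells (difference −1.07, adjusted p = 0.000387). Of 39 mitosis genes only 2 passed the interaction (5.13%, beside 14.2% of all tested genes). In NB4 cells 14 mitosis genes fell and in MOLM-13 cells 5, where 10.6% and 9.06% of all tested genes fell. The MOLM-13 count of mitosis genes was 8, 9 and 10 without DMSO replicate 2, FP54 replicate 2 and FP54 replicate 3, and 2 without DMSO replicate 3 or FP54 replicate 1.

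MOLM-13-specific rises were led by metallothioneins, sorting and matrix genes. MT2A, a metal-binding metallothionein, was at 10.4, 7.92 and 8.45 RPKM with DMSO and 33.2, 15.4 and 30.0 RPKM with FP54 in MOLM-13 and at 147, 158 and 121 RPKM with DMSO and 146, 147 and 122 RPKM with FP54 in NB4 cells. The NB4 groups overlapped at a level above that of MOLM-13 cells, and the difference was −1.51 ± 0.32 (adjusted p = 0.00558). MT1X had log2 changes of 1.5 in MOLM-13 and −0.49 in NB4 cells (difference −1.99, adjusted p = 0.00254), and its NB4 change sat at the cutoff, so that it was opposite without NB4 DMSO replicate 2 or FP54 replicate 3. Of 6 tested genes for metallothioneins and zinc export, 3 rose in MOLM-13 cells (5 without DMSO replicate 1) and none rose and 1 fell in NB4 cells, and 2 passed the interaction as lower there, a count that was 4 under both other scalings or without MOLM-13 DMSO replicate 1 and 5 without MOLM-13 FP54 replicate 2. SORL1, a sorting receptor of endosomes, was at 4.14, 5.00 and 3.23 RPKM with DMSO and 13.8, 10.8 and 12.8 RPKM with FP54 in MOLM-13 cells, a change of 1.59 beside −0.38 in NB4 cells (difference −1.97, adjusted p = 8.01e-05), and was opposite without NB4 DMSO replicate 2. MMP2, a matrix metalloproteinase, had log2 changes of 1.97 in MOLM-13 and 0.45 in NB4 cells (difference −1.51, adjusted p = 0.000394). RASSF4, a RAS association domain protein, had log2 changes of 1.14 in MOLM-13 and −0.28 in NB4 cells (difference −1.42, adjusted p = 0.000103). CTSH, a lysosomal cathepsin, had log2 changes of 0.99 in MOLM-13 and −0.34 in NB4 cells (difference −1.34, adjusted p = 0.000153).

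MOLM-13-specific falls included further amino acid enzymes. GPT2, the mitochondrial alanine aminotransferase and an ATF4 target, was at 11.9, 10.1 and 12.6 RPKM with DMSO and 3.42, 4.45 and 5.98 RPKM with FP54 in MOLM-13 and at 30.7, 30.4 and 31.3 RPKM with DMSO and 41.6, 44.7 and 41.3 RPKM with FP54 in NB4 cells. The NB4 libraries with FP54 were all above those with DMSO but under the cutoff, and the difference was 1.80 ± 0.23 (adjusted p = 0.000103). TEAD3, a factor of the Hippo pathway, had log2 changes of −1.34 in MOLM-13 and 0.49 in NB4 cells (difference 1.83, adjusted p = 1.2e-05) and was opposite without either of NB4 DMSO replicates 1 and 2 or of FP54 replicates 2 and 3. OAF, a secreted protein, had log2 changes of −1.89 in MOLM-13 and −0.17 in NB4 cells (difference 1.72, adjusted p = 0.00116). SLC39A14, an importer of zinc and iron, had log2 changes of −2.12 in MOLM-13 and −0.08 in NB4 cells, and its difference of 2.04 (adjusted p = 0.0202) missed the threshold without NB4 DMSO replicate 2.

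**Figure D4:**
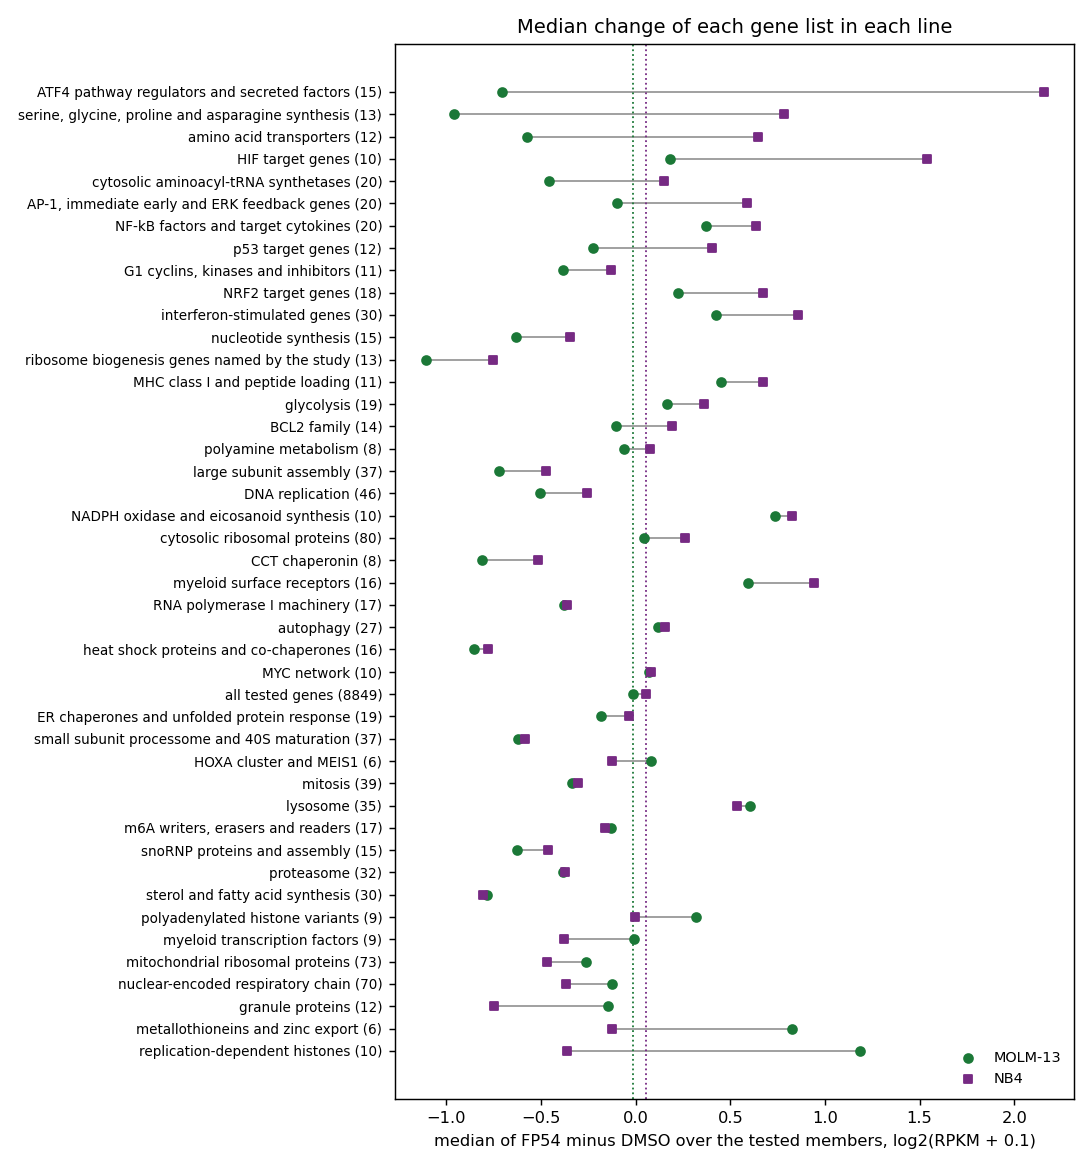
Median log2 change with FP54 over the tested members of each gene list (number of members in parentheses), MOLM-13 as green circles and NB4 as purple squares, ordered by the median of the per-gene differences. Dotted lines mark the median of all 8849 genes in each line. ATF4 pathway and amino acid lists at the top run from below 0 in MOLM-13 to above 0 in NB4 cells, while sterol, heat shock and small subunit processome lists lie to the left in both.

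Calls of ribosome assembly, heat shock and lipid synthesis genes were nearly all falls in both lines, and those of lysosomal genes nearly all rises, though many members of these lists were called in 1 line or in neither. Of 19 tested endoplasmic reticulum chaperone and unfolded protein response genes, 3 rose and 4 fell in NB4 and 3 fell in MOLM-13 cells. The interaction passed for 5 of those 19 genes (26.3%), each higher in NB4 cells. Of 37 tested small subunit processome and 40S maturation genes, 25 fell in NB4 and 13 in MOLM-13 cells and none rose in either, and the medians were −0.59 and −0.62. The MOLM-13 count was 23 without DMSO replicate 2 and 8 without DMSO replicate 3. The interaction passed as higher and as lower for 1 gene each, and no gene of the 37 was opposite. Of 37 large subunit assembly genes, 18 fell in NB4 and 16 in MOLM-13 cells, with 1 past the interaction. The MOLM-13 count was 25 without DMSO replicate 2 and 9, 8 and 6 without DMSO replicate 1, DMSO replicate 3 and FP54 replicate 1. The 13 ribosome biogenesis genes that the study named were picked there among genes lower in these NB4 cells with FP54, so that their fall in NB4 cells (all 13, median −0.76) was fixed by the choice and is no independent evidence. In MOLM-13 cells 11 of the 13 fell, with a median of −1.11, and the interaction, which shares the NB4 samples, passed for none. The difference was above 0 for all 13, a smaller fall in NB4 cells, with a median of 0.35 beside 0.083 over all tested genes. Leaving out MOLM-13 DMSO replicate 1, DMSO replicate 3 or FP54 replicate 1 lowered the MOLM-13 count to 6, 6 and 5.

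MRPL36, a protein of the large subunit of the mitochondrial ribosome, was at 8.06, 3.78 and 7.73 RPKM with DMSO and 3.03, 1.97 and 2.56 RPKM with FP54 in MOLM-13 and at 26.3, 33.8 and 34.3 RPKM with DMSO and 22.1, 17.8 and 20.1 RPKM with FP54 in NB4 cells. DMSO replicate 2 of MOLM-13 cells lay nearest to the FP54 libraries, and the difference between the lines was 0.63 ± 0.34 (adjusted p = 0.235), past the threshold without that library. WDR43, of the small subunit processome, had log2 changes of −1.15 in MOLM-13 and −0.51 in NB4 cells (difference 0.63, adjusted p = 0.184, past the threshold without MOLM-13 DMSO replicate 2). Its NB4 call was lost without DMSO replicate 1, DMSO replicate 3 or FP54 replicate 1 of that line. PES1, of large subunit maturation, had log2 changes of −1.0 in MOLM-13 and −0.76 in NB4 cells (difference 0.24, adjusted p = 0.657), and its MOLM-13 call was lost without FP54 replicate 1 or 3. With array weights, a refit that weighs each library, the differences of MRPL36, WDR43 and PES1 passed the threshold. GPATCH4, a nucleolar protein, fell by 2.02 in MOLM-13 cells, where the groups overlapped, and by 1.42 in NB4 cells, and the former call was lost without MOLM-13 DMSO replicate 3 or FP54 replicate 1. MYC was at 56.5, 13.8 and 40.2 RPKM with DMSO and 5.91, 11.8 and 18.8 RPKM with FP54 in MOLM-13 cells, where the groups overlapped through DMSO replicate 2. In NB4 cells it was at 133, 142 and 125 RPKM with DMSO and 75.8, 67.9 and 65.0 RPKM with FP54 and fell by 0.94, and the difference was 0.58 ± 0.59 (adjusted p = 0.553). MYC was called in MOLM-13 cells too without DMSO replicate 2 or FP54 replicate 3.

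The E-box, searched as CACGTG, which reads the same on both strands, was in 10.9% of the 7311 tested windows. It was in 15 of 33 windows of the small subunit genes (45.5%), in 11 of 31 of the large subunit genes (35.5%), in 8 of 12 of the 13 genes the study named (66.7%) and in 40 of 232 of all shared lower genes (17.2%), and in 3 of 57 of the opposite NB4-higher genes (5.26%). It was not particular to lists that fell, since 7 of 22 windows of lysosomal genes (31.8%) and 3 of 9 of p53 target genes (33.3%) also held it. The windows of WDR43 at chr2:28894417-28894716 (plus strand), PES1 at chr22:30591861-30592160 (minus strand) and MRPL36 at chr5:1799788-1800087 (minus strand) are shown because these genes fell in both lines, with the E-box in capitals. The other 2 motifs, the core of the antioxidant response element and a sterol regulatory element searched as TCACNCCAC, were in 2.83% and 1.01% of the tested windows, and in 1 of 11 windows of NRF2 target genes and 1 of 24 of sterol and fatty acid synthesis genes.
WDR43: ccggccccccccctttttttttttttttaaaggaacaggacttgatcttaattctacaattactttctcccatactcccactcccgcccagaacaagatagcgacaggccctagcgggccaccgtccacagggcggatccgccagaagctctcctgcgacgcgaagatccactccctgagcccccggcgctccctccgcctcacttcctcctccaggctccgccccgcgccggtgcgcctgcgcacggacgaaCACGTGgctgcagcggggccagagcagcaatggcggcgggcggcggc
PES1: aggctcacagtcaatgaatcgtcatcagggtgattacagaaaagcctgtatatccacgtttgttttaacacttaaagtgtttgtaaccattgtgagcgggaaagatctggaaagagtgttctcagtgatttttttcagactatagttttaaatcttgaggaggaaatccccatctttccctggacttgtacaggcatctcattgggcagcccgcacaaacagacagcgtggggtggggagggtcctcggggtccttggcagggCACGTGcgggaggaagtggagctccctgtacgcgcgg
MRPL36: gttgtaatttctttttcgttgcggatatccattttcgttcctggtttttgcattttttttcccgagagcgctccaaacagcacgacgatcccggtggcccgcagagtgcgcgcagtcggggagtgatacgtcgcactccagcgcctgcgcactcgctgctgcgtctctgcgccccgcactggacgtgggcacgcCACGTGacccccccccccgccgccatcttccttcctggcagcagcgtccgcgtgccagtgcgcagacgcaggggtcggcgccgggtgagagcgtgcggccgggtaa

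**Figure D5:**
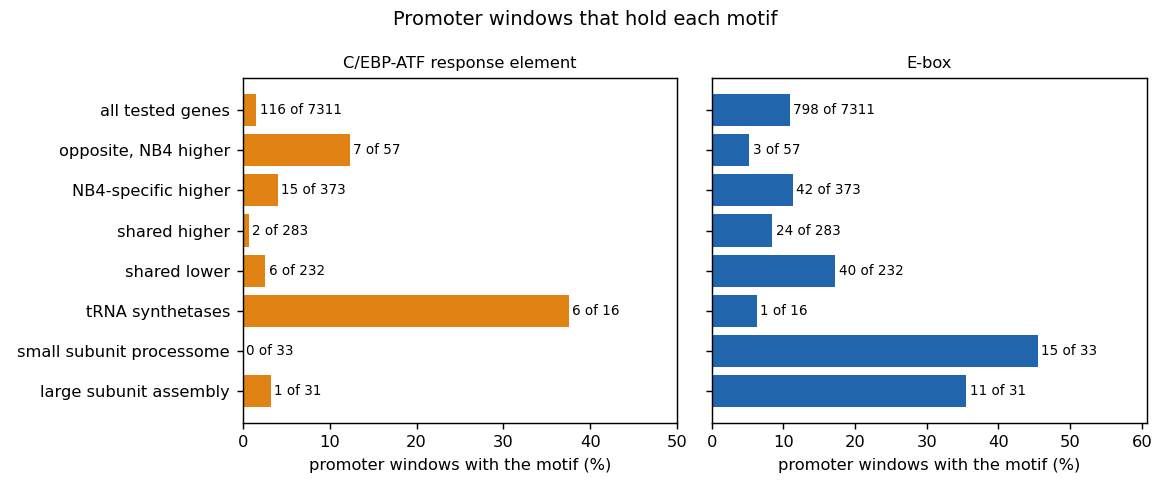
Share of promoter windows (horizontal axis, percent) that hold the C/EBP-ATF response element (left) or the E-box (right), by class and gene list, with the number of windows beside each bar. The first motif is at 12.3% of opposite NB4-higher genes and 37.5% of tRNA synthetases against 1.59% of all tested genes, and the second at 45.5% of small subunit processome genes against 10.9%.

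Heat shock proteins and co-chaperones fell in 13 of 16 tested genes in NB4 and in 12 in MOLM-13 cells (7 without DMSO replicate 3), 11 of them in both. HSPA8, the constitutive HSP70, was at 324, 261 and 317 RPKM with DMSO and 77.5, 118 and 137 RPKM with FP54 in MOLM-13 and at 471, 512 and 555 RPKM with DMSO and 266, 229.7 and 239 RPKM with FP54 in NB4 cells, and the difference of 0.41 missed the threshold (adjusted p = 0.3). HSPB1, a small heat shock protein, was the exception, called in MOLM-13 cells alone, with −1.42 in MOLM-13 and −0.46 in NB4 cells (difference 0.96, adjusted p = 0.00747), although it was shared without NB4 DMSO replicate 3. Sterol and fatty acid synthesis genes fell in 22 of 30 in each line, 19 of them in both, and 1 rose in NB4 cells, with medians of −0.81 in NB4 and −0.78 in MOLM-13 cells. The interaction passed for 6 of them, 4 as higher and 2 as lower in NB4 cells, a share of 20% beside 14.2% of all tested genes. SCD, the stearoyl-CoA desaturase, was at 423, 371 and 361 RPKM with DMSO and 136, 139.9 and 214 RPKM with FP54 in MOLM-13 and at 131, 107 and 142 RPKM with DMSO and 44.4, 40.6 and 47.6 RPKM with FP54 in NB4 cells. Both fell without overlap, and the difference was −0.25 ± 0.23 (adjusted p = 0.514). HMGCS1, of the mevalonate pathway, fell by 1.36 and 1.78 (difference −0.42, adjusted p = 0.248, past the threshold without MOLM-13 FP54 replicate 1). Within this list the lines parted at INSIG1, the sterol sensor, with −0.62 in MOLM-13 and −1.84 in NB4 cells (adjusted p = 0.000801), and FDFT1, squalene synthase, with −0.27 in MOLM-13 and −1.33 in NB4 cells (adjusted p = 0.000275), both lower in NB4 cells. ACSS2, acetyl-CoA synthetase, with −1.16 in MOLM-13 and 0.07 in NB4 cells (adjusted p = 0.000419), and FADS1, a desaturase, with −1.39 in MOLM-13 and −0.23 in NB4 cells (adjusted p = 0.003), fell in MOLM-13 cells alone. The MOLM-13 call of INSIG1 was lost without DMSO replicate 1.

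Among the other shared falls, PNP, purine nucleoside phosphorylase, fell by 1.43 in MOLM-13 and by 1.65 in NB4 cells (difference −0.22, adjusted p = 0.647). HMGN5, a nucleosome-binding protein, fell by 1.27 and 1.71, though its MOLM-13 groups overlapped and that call was lost without either of DMSO replicates 2 and 3 or either of FP54 replicates 1 and 3. Lysosomal genes rose in 18 of 35 in NB4 cells, where 1 fell, and in 16 of 35 in MOLM-13 cells, 10 of them in both. The interaction passed for 2 as higher and 4 as lower in NB4 cells, a share of 17.1% beside 14.2% of all tested genes. The MOLM-13 count of risen lysosomal genes was 10 without DMSO replicate 3, FP54 replicate 1 or FP54 replicate 3. FUCA1, a lysosomal fucosidase, had log2 changes of 1.24 in MOLM-13 and 1.53 in NB4 cells (difference 0.28, adjusted p = 0.32). LSP1, an actin-binding protein of leukocytes, was at 23.1, 38.6 and 26.6 RPKM with DMSO and 123, 91.8 and 59.7 RPKM with FP54 in MOLM-13 and at 3.16, 4.22 and 3.6 RPKM with DMSO and 16.9, 14.5 and 15.5 RPKM with FP54 in NB4 cells, and the difference of 0.47 ± 0.32 missed the threshold (adjusted p = 0.365). JAML, a junctional adhesion protein, had log2 changes of 1.86 in MOLM-13 and 2.15 in NB4 cells, ADAMTS10, a metalloprotease, of 1.34 in MOLM-13 and 1.61 in NB4 cells, and IFI6, an interferon-induced protein, of 1.32 in MOLM-13 and 1.26 in NB4 cells. No difference between the lines was detected for these 3 genes (adjusted p = 0.377, 0.427 and 0.908).

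FTO itself, whose protein FP54 degrades, was at 1.09, 0.938 and 1.01 RPKM with DMSO and 0.897, 1.00 and 1.13 RPKM with FP54 in MOLM-13 and at 2.86, 2.52 and 2.81 RPKM with DMSO and 2.11, 1.95 and 2.03 RPKM with FP54 in NB4 cells. The NB4 libraries with FP54 lay below those with DMSO by 0.41, under the cutoff of a call, and the MOLM-13 groups overlapped. Its difference of −0.40 ± 0.19 missed the threshold (adjusted p = 0.188) and passed it under median-ratio scaling and quantile normalization. Of 17 tested m6A writers, erasers and readers, none was called in NB4 cells (5 fell under median-ratio scaling). In MOLM-13 cells 2 fell (none without DMSO replicate 1, DMSO replicate 3 or FP54 replicate 2), near the 9.06% of all tested genes that fell there. The interaction passed for 1 (5.88%, beside 14.2% of all tested genes).

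Genes below the RPKM limit in 1 line have no interaction. There were 861 tested in MOLM-13 cells only, of which 202 rose and 76 fell, among 9710 tested in that line (9.3% rose and 9.04% fell), and 1004 tested in NB4 cells only, of which 334 rose and 113 fell, among 9853 tested in that line (18.6% rose and 10.7% fell). For these, the classes cannot be given, and a change in 1 line says nothing of the other.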

How the data were processed

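RPKM values per gene were deposited by the authors in 1 table for each cell line, normalized within each library to gene length and reads. According to the methods and the submitters' processing notes, the authors trimmed reads with Cutadapt (4.8), removed duplicates, aligned to hg38 with STAR (2.7.11b) and counted protein-coding genes with featureCounts (2.0.3) after poly(A) selection and stranded library preparation. The low values are whole multiples of 1 read in 98.2% to 98.9% of cases in each library (tolerance 0.02), from which the depths were recovered.

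Log2(RPKM + 0.1) values of genes with a mean of at least 1 RPKM in each table were fitted with limma (3.58.1, R 4.3.3, trended empirical Bayes) over the 4 groups, with Benjamini-Hochberg adjustment over all 8849 genes. The calls in 1 line come from the fit to its own 6 libraries. Adjusted p in the text is that of the interaction, tested 2-sided. An exact permutation test of 3 against 3 libraries cannot go below p = 0.1 and was not used. Genes were named by rule: among those averaging at least 3 RPKM in each table, the 6 widest of each opposite class, the 5 of each line-specific and each shared class and 3 shared genes of each direction past the interaction; and, at any tested level, up to 4 members of each of 44 gene lists by smallest p, of which a choice is described (some are not reported here), besides the genes the study named, FTO, MYC and VHL. Members and lists were chosen with earlier results of these data known. Gene lengths came from GENCODE and promoter windows from RefSeq. The test was tried on simulated data first. The alternatives were other pseudocounts, filters, scalings, call rules, weights and fits, and each library left out in turn.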

Additional observations from a re-analysis of the deposited data

Results flagged for a closer look

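For 63 of the genes named above, the difference between the FP54 effect in NB4 and that in MOLM-13 cells passed the interaction test of limma at an adjusted p below 0.05, among 1258 genes that passed it in all (14.2% of those tested). The values are NB4 minus MOLM-13 on the log2(RPKM + 0.1) scale. They were higher in NB4 cells for 40 genes and lower for 23, and the genes were named for their size or their place in a list, so that they do not represent the 1258.

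Among the amino acid stress, synthesis, transport and tRNA charging genes the differences were STC2 6.22, ATF5 3.89, ALDH1L2 3.74, TRIB3 3.38, PSAT1 3.12, ASNS 3.09, PHGDH 1.81, SLC7A5 1.84, SLC7A11 2.65, DDIT4 2.60, AARS1 1.72, GARS1 1.73 and GPT2 1.80. For GDF15 the fitted value was 6.97, which depends on the pseudocount because no read was counted in the NB4 DMSO libraries, and it ran from 3.67 to 10.3 over the alternatives, so that it has no place in the order of the others. Among antioxidant, hypoxia, sugar and lipid storage genes they were HMOX1 4.82, NQO1 1.90, VEGFA 1.95, P4HA1 1.47, VHL 0.72, ENO2 2.7, VLDLR 3.42 and PLIN2 2.72. Cell cycle, cell death and signalling genes stood at CDKN1A 2.50, PMAIP1 1.42, BCL2 1.34, JUN 2.28 and TEAD3 1.83. The immune and myeloid genes above 0 were SIGLEC6 3.04, ALOX5AP 2.67, ITGAX 1.66, C5AR1 2.04, CD74 1.62, XAF1 1.55, MPO 1.10 and S100P 3.75. Others above 0 were SLC39A14 2.04, OAF 1.72, ACSS2 1.23, FADS1 1.15 and HSPB1 0.96. Granule, receptor and other myeloid genes with a difference below 0 were RNASE3 −2.69, CTSG −1.71, PRTN3 −1.68, IL6R −1.82, CYBB −1.36 and CEBPD −1.63. The lysosomal, sorting and matrix genes CTSH −1.34, SORL1 −1.97 and MMP2 −1.51 were below 0 through a rise called in MOLM-13 cells alone. Histone and mitochondrial genes below 0 were H2AC8 −2.90, H2BC12 −1.70, MRPL41 −1.38 and NDUFC1 −1.18. Metallothionein and sterol genes below 0 were MT1X −1.99, MT2A −1.51, INSIG1 −1.22 and FDFT1 −1.06. The remaining genes below 0 were CCNB1 −1.07, MSRB1 −1.20, GSN −1.39, RASSF4 −1.42, DACH1 −1.68 and SOWAHD −1.95.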

How the results depend on the processing

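Of the 63 called differences of named genes, 61 kept their call and direction in each refit of the interaction in which they were tested, up to 25 for a gene. The rules on the call in 1 line and the limit of at least 1 on the interaction were applied to counts only. The exceptions were BCL2 and SLC39A14, both of which missed the threshold with no filter on low values and without the libraries named above. Values of uncalled genes near 0 turned sign. The difference of JAML stood at −0.10 with a pseudocount of 1 and at −0.0237 under quantile normalization, the difference of IFI6 at 0.0238, 0.13 and 0.41 with a pseudocount of 1, quantile normalization and array weights, and the difference of HMGN5 at 0.41 with array weights. Leaving out each library in turn moved IFI6 between −0.25 and 0.11, HMGN5 between −0.82 and 0.0766 and the difference of GPATCH4 between −0.0240 and 1.21. No cause of these changes was tested.

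Counts moved by more than 1.5 times under the following settings. With no filter on low values the interaction was higher in NB4 cells for 3963 and lower for 628 genes, and there were 93 shared lower, 104 opposite NB4-higher, 2720 NB4-specific higher, 192 NB4-specific lower and 151 MOLM-13-specific higher genes. With a mean of at least 5 RPKM, which tests fewer genes, these were 432 and 201, with 139 shared higher, 26 opposite NB4-higher, 8 opposite NB4-lower, 201 NB4-specific higher, 78 NB4-specific lower, 40 MOLM-13-specific higher and 105 MOLM-13-specific lower genes. Median-ratio scaling gave 834 interactions lower in NB4 cells, 442 shared lower, 25 opposite NB4-lower, 299 NB4-specific higher, 380 NB4-specific lower and 167 MOLM-13-specific higher genes. Quantile normalization gave 813 lower interactions, 32 opposite NB4-lower, 307 NB4-specific lower and 231 MOLM-13-specific higher genes. Array weights gave 1683 higher and 729 lower interactions, 454 shared lower, 238 MOLM-13-specific higher and 451 MOLM-13-specific lower genes. Line calls at p below 0.05 with a log2 change of at least 1 gave 59 shared higher, 39 shared lower, 14 opposite NB4-higher, 1 opposite NB4-lower, 309 NB4-specific higher, 36 NB4-specific lower, 31 MOLM-13-specific higher and 85 MOLM-13-specific lower genes. An interaction of at least 1 gave 471 higher and 102 lower, with 267 NB4-specific higher, 51 NB4-specific lower, 29 MOLM-13-specific higher and 80 MOLM-13-specific lower genes.

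Leaving out each library in turn gave 607 to 1146 interactions higher and 199 to 449 lower in NB4 cells, 234 to 435 shared higher, 156 to 431 shared lower, 45 to 76 opposite NB4-higher, 9 to 19 opposite NB4-lower, 339 to 532 NB4-specific higher, 80 to 135 NB4-specific lower, 59 to 159 MOLM-13-specific higher and 88 to 319 MOLM-13-specific lower genes. The replicate numbers of FP54 and DMSO libraries did not pair them, with correlations of the deviations of −0.27, −0.13 and −0.08 in MOLM-13 and −0.20, 0.09 and 0.11 in NB4 cells. A replicate block gave 681 higher and 218 lower interactions and kept 875 of the 1258 genes. Limits of these data are the 3 libraries in each group, of which MOLM-13 FP54 replicate 2 has the fewest reads, and the wider spread of the MOLM-13 libraries. The NB4 FP54 libraries carry the background and are all shallower than the NB4 DMSO libraries. Scaling sets whether more genes are called higher or lower in NB4 cells.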
